A study of Mus musculus with 9 samples.

Results

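Foxp3+ cells were looked for among CD8+ T cells sorted from B16F10 melanomas of C57BL/6 mice. The cells were chosen by their Foxp3 reads: a cell counted as Foxp3+ when at least 5 reads of Foxp3 were assigned to it and a beta chain of the T cell receptor had been read in the same cell. There were 199 such cells among 30026 tumour cells with a beta chain, and among 37208 cells in the files. They are compared below with the 29790 cells that had a beta chain and no Foxp3 read. Foxp3 reads chose the cells, so Foxp3 levels are described without a test.

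The mice were 8-week-old female C57BL/6 animals, and the tumours, grown subcutaneously from the B16F10 line, were taken on day 14. The anti-CD4 mouse received 200 µg of the depleting antibody GK1.5 on days 5 and 9. The other cartridge, the capture unit of the single-cell system, held cells of an untreated mouse and of a mouse given anti-PD-L1 (clone 10F.9G2) at the same dose and days. These are the tag 1 and tag 2 tumours, named by the antibody-bound barcode on their cells, because no label used here says which tag had which treatment. Cells were sorted as TCRbeta+, CD4-, CD8+ and negative for CD11b, B220, NK1.1 and Ter119, with intravascular leukocytes left out and a stated purity of over 95%. There was 1 mouse per treatment, and tags 5 and 6 of the anti-CD4 cartridge are cells of 1 mouse, so treatment, mouse and, for anti-CD4, cartridge cannot be told apart.

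Foxp3 is the transcription factor that sets the regulatory T cell programme, in which CTLA-4 removes costimulatory ligands from antigen-presenting cells, CD25 (Il2ra) binds interleukin-2 and GARP (Lrrc32) holds latent TGF-beta on the cell surface. Most regulatory T cells are CD4+ and need Foxp3 for their suppressive function. CD8+ T cells that express Foxp3 have been described, in small numbers, in tumours, transplants and chronic inflammation. In mouse T cells Foxp3 is a marker of the regulatory lineage, although low or short-lived expression can occur elsewhere. On GRCm38 Foxp3 lies on chromosome X (7579676 to 7595243), Lrrc32 on chromosome 7 (98489305 to 98501831), Ctla4 on chromosome 1 (60909025 to 60915832) and the genes of the CD8 dimer side by side on chromosome 6, Cd8b1 at 71322788 to 71337492 and Cd8a at 71373427 to 71379171, per RefSeq.

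The clones with most Foxp3+ cells are shown first, since the results turn on them. A clone was a set of cells of 1 tumour with the same V gene, J gene and CDR3 nucleotides of the beta chain. Each line gives the CDR3 from its first cysteine codon to its last phenylalanine codon, 5′ to 3′, as deposited; capitals mark in-frame codons for Gly-Leu-Gly, a stretch noticed in several of these clones after their values were seen.
TRBV14 with TRBJ2-4, anti-CD4 tumour, 25 of 26 cells Foxp3+: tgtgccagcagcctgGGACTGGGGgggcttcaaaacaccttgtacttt
TRBV13-3 with TRBJ2-7, anti-CD4 tumour, 16 of 16 cells Foxp3+: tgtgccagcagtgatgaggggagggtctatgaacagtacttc
TRBV12-2 with TRBJ2-7, anti-CD4 tumour, 6 of 6 cells Foxp3+: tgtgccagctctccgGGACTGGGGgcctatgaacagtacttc
TRBV3 with TRBJ1-2, tag 2 tumour, 9 of 10 cells Foxp3+: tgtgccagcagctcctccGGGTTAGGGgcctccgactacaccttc
TRBV16 with TRBJ2-5, largest clone of the anti-CD4 tumour, 12 of 2132 cells Foxp3+: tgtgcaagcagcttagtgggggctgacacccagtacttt

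Foxp3+ cells made up 1.45% of the beta chain cells of the anti-CD4 tumour (179 of 12304; exact Clopper-Pearson 95% interval 1.25 to 1.68%). The tag 1 tumour had 4 such cells of 6412, a share of 0.0624% (0.0170 to 0.160%). The tag 2 tumour had 16 of 11310, a share of 0.141% (0.0809 to 0.230%). Within the anti-CD4 mouse the share was 1.46% of tag 5 cells (91 of 6226) and 1.45% of tag 6 cells (88 of 6078). The share of the anti-CD4 tumour lay above both other intervals, but with 1 mouse each there is no test between tumours. Intervals here cover counting error only, since cells of a clone share their origin. Beta chain cells had a median of 21195 reads in the anti-CD4 tumour, 17631 under tag 1 and 13936 under tag 2. After every cell was thinned to 4000 reads the shares were 1.36%, 0.0624% and 0.133%.

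**Figure D1:**
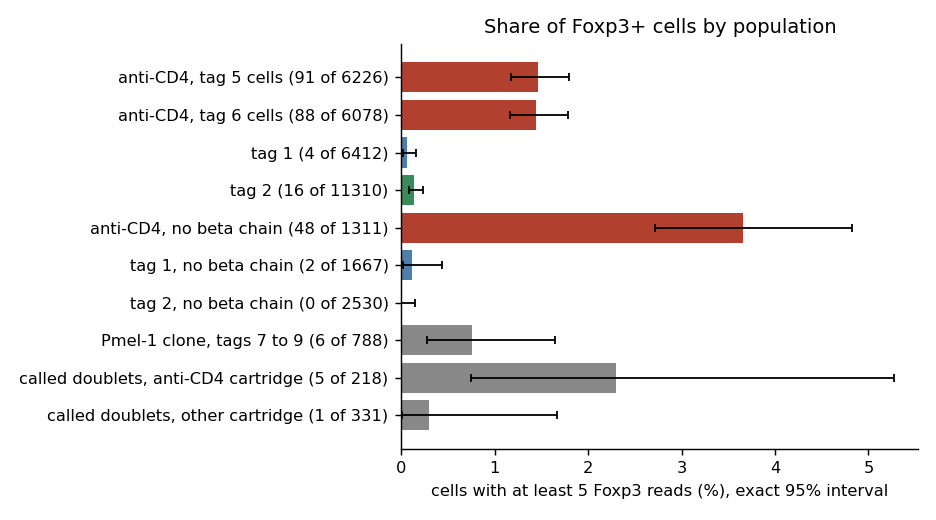
Share of cells with at least 5 Foxp3 reads (horizontal axis, percent) in each population, with the number of Foxp3+ cells and of all cells in brackets; bars start at 0 and whiskers are exact 95% binomial intervals. The anti-CD4 tumour lies at 1.46% and 1.45% under its 2 tags, and the tag 1 and tag 2 tumours at 0.0624% and 0.141%.

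Most Foxp3+ cells carried far more Foxp3 reads than the threshold asks for. In the anti-CD4 tumour the lowest, median and highest counts were 5, 335 and 1249 reads. The 4 cells of the tag 1 tumour had 186, 225, 265 and 394 reads, and the 16 of the tag 2 tumour had 38 to 1086 with a median of 256. The ranges of the 3 tumours overlapped. Within the anti-CD4 mouse the median was 487 reads in tag 5 and 237.5 reads in tag 6 cells, although both tags mark 1 mouse. Around the threshold, 6 cells had 5 to 9 reads and 37 cells had 1 to 4. The 6 just inside had a median of 378 Ctla4 reads and no Il2ra or Lrrc32 read. Of the 37 just outside, 18.9% had an Il2ra read and 2.70% an Lrrc32 read, against 69.4% and 65.8% of the 193 cells with at least 10 Foxp3 reads.

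Foxp3 reads were also counted in other cells of the same cartridges, and their source there was not tested. The Pmel-1 T cells added to the anti-CD4 cartridge came from spleens of mice with a transgenic receptor, and 6 of 788 cells of that receptor's clone under tags 7 to 9 had at least 5 Foxp3 reads (0.761%; 0.280 to 1.65%). Cells that the deposited tables call doublets reached the threshold in 5 of 218 in the anti-CD4 cartridge and in 1 of 331 in the other. Of the 199 Foxp3+ cells, 1 had a cell barcode number that was also present in the other cartridge, and 397 numbers were shared in all. Foxp3 was absent from nearly all cells of the tag 1 and tag 2 tumours: a further 2 and 1 cells had 1 to 4 reads.

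Most Foxp3+ cells had reads of the CD8 genes, and 1 had reads of Cd4. Cd8a, which encodes the alpha chain of the coreceptor, was read in 158 of 179 Foxp3+ cells of the anti-CD4 tumour (88.3%), in 4 of 4 in the tag 1 tumour and in 14 of 16 in the tag 2 tumour. In 0-read cells of the anti-CD4 tumour Cd8a was read in 97.1% and Cd8b1 in 97.9%. Both lay above the exact intervals of its Foxp3+ cells (82.6 to 92.6% for Cd8a and 87.2 to 95.7% for Cd8b1). In 0-read cells of the tag 1 and tag 2 tumours Cd8a was read in 77.5% and 76.2%, and Cd8b1 in 91.1% and 88.0%. Those shares lay below the shares of their Foxp3+ cells, so the direction was not the same in the 3 mice. The shares were not tested between classes. Cd8b1, the beta chain, was read in 165 of 179 (92.2%), 4 of 4 and 16 of 16. Either gene was read in 174 of 179, 4 of 4 and 16 of 16 cells, so 5 Foxp3+ cells, all in the anti-CD4 tumour, had neither. These counts take any single read; at least 10 reads of both genes were present in 149 of the 199 Foxp3+ cells. Cd4 was read in 1 of 179 Foxp3+ cells of the anti-CD4 tumour (0.559%; 0.0141 to 3.07%), beside 33 of 12091 cells with no Foxp3 read (0.273%). It was read in 0 of 4 and 0 of 16 cells of the other tumours, with exact upper limits of 60.2% and 20.6% for the share of cells with a Cd4 read. The 1 cell had 16 Cd4 reads, 601 Foxp3 reads, 70 Cd8a reads and 27 Cd8b1 reads. In all 37208 cells Cd4 was read in 59, with up to 165 reads. The sort kept CD4- cells, and no population in the files is labelled CD4+, so how well the panel reads Cd4 was not tested.

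The level of the CD8 genes in Foxp3+ cells was lower in the anti-CD4 tumour on the scale of CPM (scaled counts: reads of the gene per 1000000 panel reads, both summed over the cells of a class). Cd8a was at 9032 CPM in Foxp3+ and 16769 CPM in 0-read cells of the anti-CD4 tumour. It was at 20087 and 8048 CPM in the tag 1 tumour and at 16007 and 13659 CPM in the tag 2 tumour, so the direction was not the same in the 3 mice. Cd8b1 was at 6064 and 11658 CPM, 9056 and 9920 CPM, and 7597 and 10808 CPM in the same order. Neither gene passed the test described below (Cd8a log2 difference -0.61, edgeR adjusted p = 0.303; Cd8b1 -1.01, adjusted p = 0.107).

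**Figure D2:**
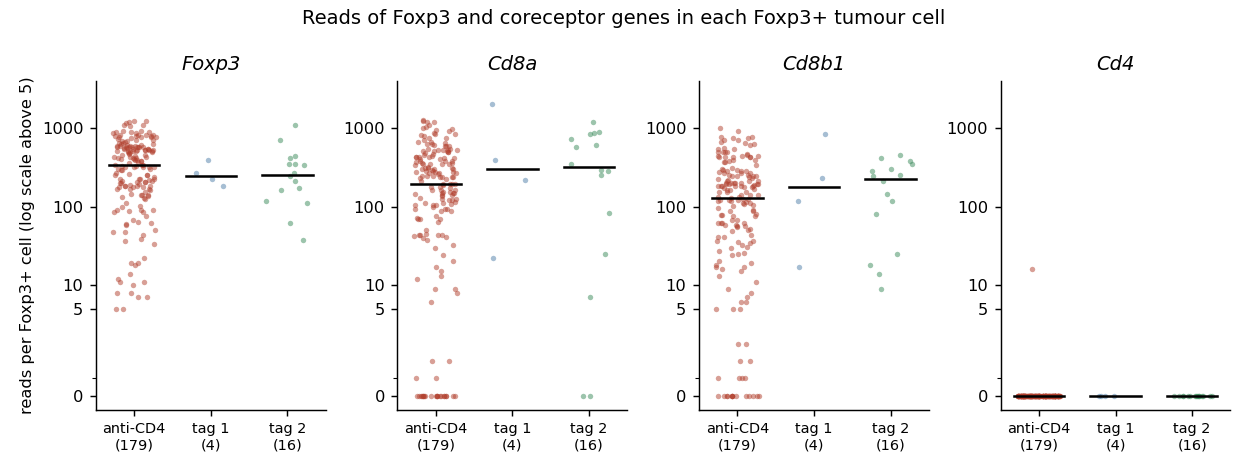
Reads of Foxp3, Cd8a, Cd8b1 and Cd4 in each of the 199 Foxp3+ cells (vertical axis, logarithmic above 5 and linear below), by tumour with the number of cells in brackets; points are cells, spread sideways at random, and black lines are medians. Cd4 is at 0 in all but 1 cell, while Cd8b1 has a median of 130 reads in the anti-CD4 tumour.

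Markers of other cell types were set beside these cells. Foxp3+ cells were read more deeply than 0-read cells, with medians of 29132 against 21135 reads in the anti-CD4 tumour, 27540 against 17614 in tag 1 and 26982 against 13921 in tag 2. Of the 9 macrophage markers, 5 were measured; their summed level was 1329 CPM in Foxp3+ and 1860 CPM in 0-read cells of the anti-CD4 tumour, 0 and 110 CPM in tag 1 and 259 and 443 CPM in tag 2, and Adgre1 was at 0 in all Foxp3+ cells. The 2 measured neutrophil markers were at 0 in Foxp3+ cells. The 3 measured NK cell markers summed to 0.176 and 107 CPM, 0 and 230 CPM, and 273 and 468 CPM. The 6 measured dendritic cell markers summed to 1268 and 2312 CPM, 13464 and 1466 CPM, and 1035 and 479 CPM, with Flt3 at 0 in Foxp3+ cells. None of the 7 melanoma markers was measured. Of the B cell markers, Ighm was at 5925 and 696 CPM, 1876 and 1189 CPM, and 6992 and 2192 CPM in the same order, and its part in the results was not tested. Cd79a, a signalling chain of the B cell receptor, was at 0 in Foxp3+ cells.

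To ask which genes differ between the classes, reads were summed over the cells of each class in each mouse and tested with edgeR, with the mouse as a block. The anti-CD4 tumour (179 Foxp3+ cells) and the tag 2 tumour (16) entered, and the tag 1 tumour, with 4 cells, is given as values. Of the 16 cells of the tag 2 tumour, 9 were of the TRBV3 clone printed above. The tag 2 side of the test thus rests largely on 1 clone, and the 7 cells without it were too few to enter. At an adjusted p below 0.05, 26 of 1125 genes passed (2.31%), 12 higher in Foxp3+ cells (1.07%) and 14 lower (1.24%). The median log2 difference of all genes was -0.79, and that of DESeq2 on the same sums -0.42. In the anti-CD4 and tag 2 mice the medians were -0.59 and -5.18 over all genes. Over the 350 genes of at least 10 CPM on average they were -0.23 and -0.70, so -0.79 is not a baseline for abundant genes. The test rests on 4 sums with 1 residual degree of freedom, and it borrows its spread from all genes. DESeq2 called 13 genes, 4 higher and 9 lower, of which 5 were shared: Lrrc32, Il10, Klrg1 and Mmp9 higher and Xcl1 lower. Without the mouse as a block 2 passed, Lrrc32 and Xcl1, and with a filter at 10 CPM, with the tag 1 mouse added, or with only clone mates as the comparison 0 passed. Against clone mates the fitted directions of Cxcr6, Gzmb, Il18rap, Klrc1 and Xcl1 turned. That fit had 6925 mates in the anti-CD4 tumour but 1 in the tag 2 tumour, so its tag 2 side rests on 1 cell. Over the 11 other settings with a test, the calls of Lrrc32 and Xcl1 were lost in 3 and those of the other 19 named genes in 4 to 9: Itgae in 9, Cd79b in 8 and Mmp9 in 7.

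Among the genes called higher were 5 of the regulatory T cell list. Of 31 listed genes 23 were tested, and 5 were called higher and 0 lower: Lrrc32, Tnfrsf4, Ctla4, Il10 and Itgae. The median log2 difference of the list was 1.11, beside -0.79 for all genes. In both mice 17 of the 23 were higher and 1 was lower, beside 95 and 635 of the 1125 genes tested. Of the 23, 22 had at least 10 CPM on average, with a median log2 difference of 1.13. Among all 350 tested genes of that level the median was -0.54, with 64 higher and 173 lower in both mice. The list was chosen with results of these data known.

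Lrrc32 encodes GARP, which docks latent TGF-beta on regulatory T cells. It was at 4353 CPM in Foxp3+ and 49.9 CPM in 0-read cells of the anti-CD4 tumour, and at 6040 and 166 CPM in the tag 2 tumour. The tag 1 tumour had 82.9 and 96.2 CPM. The first pair of mice was far apart between classes, and the 4 cells of the tag 1 tumour were not. It was read in 113 of 179 (63.1%), 13 of 16 and 1 of 4 Foxp3+ cells, beside 1.18%, 1.85% and 1.03% of 0-read cells. Of the 13 cells of the tag 2 tumour, 9 were of the TRBV3 clone. The log2 difference was 5.53 (6.19 and 4.88 in the anti-CD4 and tag 2 mice; SD 0.92, n = 2; edgeR adjusted p = 7.22e-13).

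Ctla4, the inhibitory receptor that competes with CD28, was at 42981 and 14819 CPM in Foxp3+ and 0-read cells of the anti-CD4 tumour, 10691 and 3266 CPM in tag 1, and 15220 and 5338 CPM in tag 2. It was higher in Foxp3+ cells of all 3 mice. Its log2 difference was 1.24 (SD 0.045 over 2 mice), with an edgeR adjusted p of 0.000277. Tnfrsf4 (OX40, a costimulatory receptor) was at 21771 and 2545 CPM in the anti-CD4 tumour, 17261 and 2598 CPM in tag 1, and 10880.0 and 5151 CPM in tag 2. The log2 difference of Tnfrsf4 was 1.81 (2.84 and 0.78 in the anti-CD4 and tag 2 mice; edgeR adjusted p = 0.000127). Like Ctla4, it was higher in Foxp3+ cells of all 3 mice.

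Il10, which encodes an immunosuppressive cytokine, was at 1160 and 75.6 CPM in the anti-CD4 tumour and at 691 and 8.74 CPM in the tag 2 tumour, with 75.3 and 13.0 CPM in tag 1. Few cells carried it: 40 of 179, 3 of 16 and 1 of 4. Its log2 difference was 4.84 (edgeR adjusted p = 0.00227). Itgae encodes CD103, an integrin chain that binds E-cadherin and is induced by TGF-beta. It was at 711 and 12.5 CPM in the anti-CD4 tumour and at 1057 and 189 CPM in tag 2, with 52.7 and 43.1 CPM in tag 1. The log2 difference of Itgae was 3.88, with an edgeR adjusted p of 0.0451.

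Other regulatory T cell genes did not pass. Il2ra, the alpha chain of the interleukin-2 receptor, was at 3919 and 324 CPM in the anti-CD4 tumour, where 127 of 179 Foxp3+ cells had a read (70.9%, beside 17.2% of 0-read cells). In the tag 2 tumour it was at 358 and 289 CPM and was read in 5 of 16, and in tag 1 it was at 211 and 288 CPM. The mice thus differed in the size of this difference, which was not tested between them (log2 3.34 and 0.01; edgeR adjusted p = 0.303 over both). Ikzf2 (Helios, a transcription factor of thymic regulatory T cells) was read in 58 of 179 and 3 of 16 Foxp3+ cells, beside 2.46% and 8.55% of 0-read cells, with an edgeR adjusted p of 0.507. Tnfrsf18 (GITR) was at 10397 and 2869 CPM in the anti-CD4 tumour, and at 6843 and 3615 CPM in tag 2, with an edgeR adjusted p of 0.151. Icos was at 8113 and 3240 CPM and at 7308 and 2495 CPM in these mice, with an edgeR adjusted p of 0.146. Tnfrsf9 (4-1BB) was at 8564 and 2183 CPM and at 8077 and 4618 CPM (edgeR adjusted p = 0.152).

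Other genes called higher came from no regulatory list. Klrg1, an inhibitory receptor of short-lived effector and of some regulatory T cells, was at 7643 and 655 CPM in the anti-CD4 tumour and in 91 of 179 Foxp3+ cells. In the tag 2 tumour it was at 2840 and 115 CPM, all of it from 1 of 16 cells, and in tag 1 at 1695 and 1059 CPM. Its log2 difference was 3.81 (edgeR adjusted p = 1.32e-07). Gzmb, the granzyme that triggers death of target cells, was at 66284 and 30079 CPM, 18851 and 7875 CPM in tag 1, and 16564 and 6701 CPM in tag 2, with a log2 difference of 0.94 (edgeR adjusted p = 0.00193). It was higher in Foxp3+ cells of all 3 mice. Mmp9, a matrix protease, was read in 11 of 179, 3 of 16 and 0 of 4 Foxp3+ cells, beside 0.265%, 0.0620% and 0.187% of 0-read cells (edgeR adjusted p = 0.0403).

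Ighm and Cd79b, which belong to the B cell receptor complex, were also called higher. Ighm was read in 138 of 179 Foxp3+ cells of the anti-CD4 tumour (77.1%, beside 18.7% of 0-read cells), in 11 of 16 in the tag 2 tumour (beside 30.2%) and in 1 of 4 in tag 1. Its log2 difference was 2.10 (edgeR adjusted p = 0.00300). Cd79b was read in 53 of 179, 3 of 16 and 0 of 4 Foxp3+ cells, with a log2 difference of 3.51 (edgeR adjusted p = 0.0400). The remaining 2 genes called higher, Mrpl37 and Gm12977, had under 1 CPM and opposite directions in the 2 mice, and are named only.

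Several cytotoxic genes were called lower in Foxp3+ cells, and Gzmb higher. Of 15 cytotoxic genes 11 were tested, with 1 called higher (Gzmb) and 3 lower (Gzma, Gzmk and Klrc1), and a median log2 difference of -2.27. Klrc1 encodes NKG2A, an inhibitory receptor of cytotoxic cells. It was at 1150 and 5466 CPM in the anti-CD4 tumour, 7761 and 8371 CPM in tag 1, and 610 and 5827 CPM in tag 2. The log2 difference of Klrc1 was -3.03 (edgeR adjusted p = 4.47e-06). Gzmk was at 704 and 3480 CPM, 2268 and 3342 CPM, and 4.59 and 811 CPM in the same order (log2 -4.83; edgeR adjusted p = 1.86e-05). Gzma was at 776 and 2109 CPM in the anti-CD4 tumour, and had 0 reads in the 16 Foxp3+ cells of tag 2, where 8.61% of 0-read cells had a read and the level was 1445 CPM (edgeR adjusted p = 0.000311 over both mice). With 16 cells no fold is given for Gzma there. In the CD8 lineage list 0 of 7 genes passed, with a median log2 difference of -1.19. Over all 1125 genes, 12 were called higher and 14 lower. Called or not, 787 of the 1125 were lower, with a median of -0.79. Every tested gene of these 2 lists had at least 10 CPM on average, and the median of all 350 such genes was -0.54.

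Xcl1 encodes a chemokine that draws cross-presenting dendritic cells, and it was the gene of lowest adjusted p. It was at 150 and 3486 CPM in Foxp3+ and 0-read cells of the anti-CD4 tumour, 0 and 3869 CPM in tag 1, and 651 and 10908 CPM in tag 2. Reads were found in 9 of 179, 0 of 4 and 3 of 16 Foxp3+ cells. Xcl1 was lower in Foxp3+ cells of all 3 mice, with a log2 difference of -4.58 over 2 of them (SD 0.31; edgeR adjusted p = 1.20e-13).

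Cxcr6, a chemokine receptor of tissue-resident and exhausted CD8+ cells, was at 1240 and 5550 CPM in the anti-CD4 tumour, 3466 and 2307 CPM in tag 1, and 229 and 2045 CPM in tag 2. It was called lower (log2 -2.94; edgeR adjusted p = 0.000119), although the 4 cells of the tag 1 tumour lay above their 0-read cells. Cd160, an immunoglobulin-family receptor of cytotoxic cells, was at 233 and 1032 CPM in the anti-CD4 tumour and had 0 reads in the 16 Foxp3+ cells of tag 2, where 14.7% of 0-read cells had a read (edgeR adjusted p = 0.00388). Il18rap, a chain of the interleukin-18 receptor, was at 815 and 2099 CPM and at 124 and 2428 CPM (edgeR adjusted p = 0.00398). Lilr4b was at 194 and 983 CPM and at 4.59 and 491 CPM (edgeR adjusted p = 0.0117). The survival genes Bcl2a1a, Bcl2a1b and Bcl2a1d were called lower too, but they are near-identical copies between which reads may be split, so each is uncertain. The remaining genes called lower were Dusp2, Btg1 and Trbc2.

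The exhaustion receptor Pdcd1 did not pass. It was at 3811 and 10894 CPM in the anti-CD4 tumour, 1838 and 3051 CPM in tag 1, and 5161 and 6259 CPM in tag 2 (log2 -1.18; edgeR adjusted p = 0.0929). Tcf7, a factor of naive and stem-like cells, was at 115 and 399 CPM, 0 and 2704 CPM, and 1821 and 3548 CPM (edgeR adjusted p = 0.198). Of the other lists, checkpoint receptors had 1 gene called higher and 1 lower of 14 tested, costimulatory receptors 1 and 0 of 9, naive and stem-like genes 0 and 1 of 9, homing receptors 0 and 1 of 14, T cell receptor signal genes 0 and 1 of 14 and cytokines and chemokines 1 and 1 of 13. Short-lived effector genes had 1 and 0 of 4, and the TGF-beta list 2 and 0 of 4. Over all genes tested these counts were 12 and 14 of 1125. The lists share genes, so their calls are not separate results. The 2 of the TGF-beta list were Lrrc32 and Itgae, and none of its receptors or Smads was tested. Ctla4, Tnfrsf4 and Il10 were the higher calls of the checkpoint, costimulatory and cytokine lists, and these 5 genes are also in the regulatory T cell list. Xcl1 was the lower call of both the naive and the cytokine lists. The IL-2 and STAT5 list (10 tested), the CD4 lineage list (7), proliferation genes (7) and interferon response genes (11) had none called by edgeR.

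**Figure D3:**
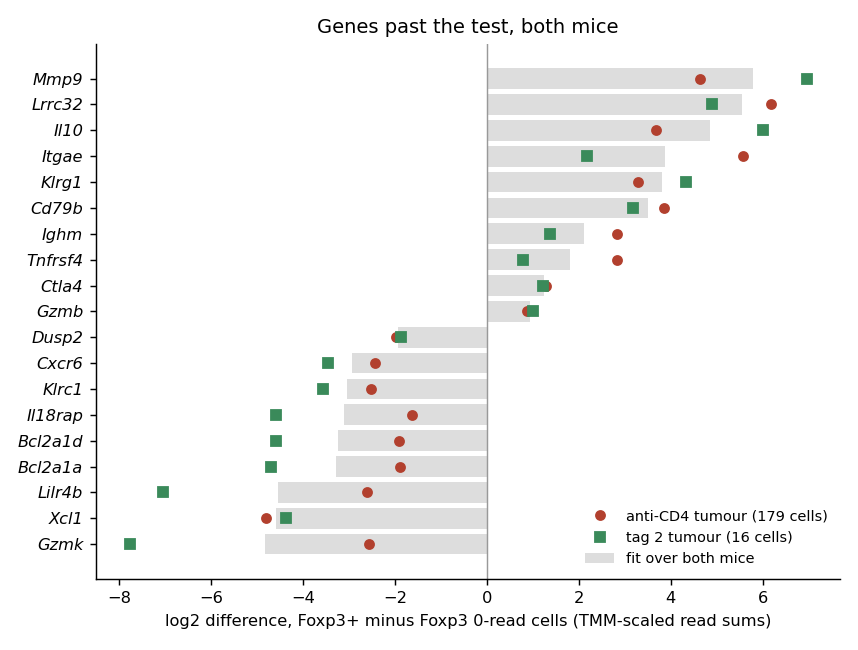
Log2 difference between Foxp3+ and Foxp3 0-read cells (horizontal axis, TMM-scaled read sums) for the named genes past the test that had reads in both mice; grey bars are the fit over both mice, circles the anti-CD4 tumour and squares the tag 2 tumour. Xcl1 lies at -4.80 and -4.37, and Lrrc32 at 6.19 and 4.88.

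Clones divided the Foxp3+ cells of the anti-CD4 tumour into contrasting sets. The 179 cells belonged to 85 of its 1474 clones. In 12 clones, called majority clones here, at least 50% of at least 2 cells were Foxp3+; they held 70 cells, of which 68 were Foxp3+ and 2 had no Foxp3 read. Another 30 clones, called minority clones, held 7016 cells, of which 68 were Foxp3+ (0.969%), 6923 had no Foxp3 read and 25 had 1 to 4 reads. The other 43 Foxp3+ cells were the only cell of their clone. These kinds were defined after the clones had been seen, and by Foxp3 itself, so their Foxp3 shares are a description.

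The largest majority clone, TRBV14 with TRBJ2-4, had 25 Foxp3+ cells of 26, spread over tag 5 (16) and tag 6 (9). TRBV13-3 with TRBJ2-7 had 16 of 16, and TRBV12-2 with TRBJ2-7 had 6 of 6. Smaller ones were a TRBV13-1 with TRBJ2-4 clone and a TRBV16 with TRBJ2-5 clone, with 4 of 4 each. In the paired alpha chains the first clone had 1 sequence in 25 of 25 cells with an alpha chain (TRAV9N-4 with TRAJ24), the second in 15 of 16 (TRAV16N with TRAJ57) and the third in 6 of 6 (TRAV14-1 with TRAJ30). In contrast, the largest clone of the tumour, whose CDR3 is printed above, had 12 Foxp3+ cells of 2132 (0.563%; exact interval 0.291 to 0.981%). Clones of at least 100 cells had 44 Foxp3+ cells of 7650 (0.575%; 0.418 to 0.771%), and clones of 10 to 99 cells 60 of 2583 (2.32%). Among clones of 1 cell the share was 43 of 1097 (3.92%; 2.85 to 5.24%). The Pmel-1 clone of the same cartridge had a share of 0.761%, beside 0.575% in clones of at least 100 cells and 0.969% in minority clones. Minority clones were picked for holding a Foxp3+ cell, which raises their share, so that value is not a like comparison.

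The other tumours had fewer clones. In the tag 2 tumour the 16 Foxp3+ cells belonged to 7 of 7398 clones: 9 of 10 cells of the TRBV3 with TRBJ1-2 clone printed above, 2 of 2 of a TRBV16 with TRBJ2-7 clone, and 5 clones of 1 cell. None lay in a minority clone. In the tag 1 tumour the 4 cells belonged to 3 of 1912 clones, with 2 of 104, 1 of 7 and 1 of 2 cells. Of the 85 clones with Foxp3+ cells in the anti-CD4 tumour, 0 had a cell in either other tumour. By amino acids alone, 7 of their CDR3 sequences were also present in the tag 2 tumour. Of the tag 1 clones with Foxp3+ cells 1 of 3 had a cell in the tag 2 tumour, and of those of tag 2 1 of 7 had one in tag 1. The share of all clones found in another tumour was not counted, so these numbers have no background.

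**Figure D4:**
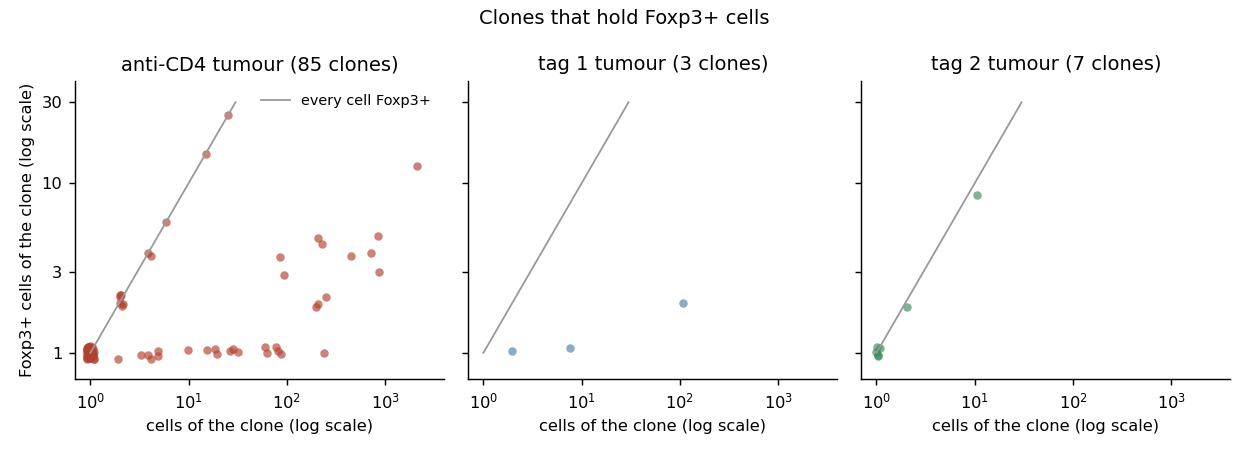
Foxp3+ cells (vertical axis) against all cells (horizontal axis) of each clone that holds a Foxp3+ cell, both on log scales, 1 panel per tumour; each point is a clone, shifted slightly at random so that points do not hide each other, and the grey line marks clones in which every cell is Foxp3+. In the anti-CD4 tumour clones lie along the line up to 25 Foxp3+ cells or far to its right, up to 12 of 2132 cells.

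Foxp3+ cells of majority and of minority clones had different shares of cells with a read of other genes, given here without a test. Lrrc32 was read in 54 of 68 cells of majority clones (79.4%), 26 of 43 single-cell clones (60.5%) and 33 of 68 cells of minority clones (48.5%), beside 0.939% of the 6923 clone mates without Foxp3. Il2ra was read in 92.6%, 67.4% and 51.5%, beside 18.2% of the mates. Itgae was read in 79.4%, 76.7% and 35.3%, beside 0.708%. Majority clones were thus highest for all 3 genes, and minority clones lay between them and the mates.

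Klrc1, Cxcr6, Gzmk and Pdcd1, picked after their values were seen, were read more often in minority clones than in the other kinds. Klrc1 was read in 10.3% of Foxp3+ cells of majority clones, 11.6% of single-cell clones and 61.8% of minority clones, beside 82.8% of the mates. Cxcr6 was read in 17.6%, 16.3% and 70.6%, beside 91.0%, and Gzmk in 5.88%, 6.98% and 47.1%, beside 64.9%. Pdcd1 was read in 38.2%, 51.2% and 92.6%, beside 93.2% of the mates. Other effector genes did not have this order: Klrg1 was read in 73.5%, 32.6% and 39.7%, beside 14.3%, and Gzmb in 68 of 68, 38 of 43 and 66 of 68 cells, beside 93.1% of the mates. Cd8a was at 5489, 7684 and 12504 CPM in Foxp3+ cells of the 3 kinds. Within 1 mouse these shares have no test.

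Other measures moved with the kind of clone. Median Foxp3 reads were 440.5 in majority, 377 in single-cell and 214 in minority clones, and median reads per cell were 30638, 21761 and 33242, beside 22520 in the mates of minority clones. Beta reads beyond those of the leading chain were present in 20.6%, 20.9% and 39.7% of these Foxp3+ cells, and in 30.3% of the mates. The part of such second chains in the expression of minority clones was not tested.

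**Figure D5:**
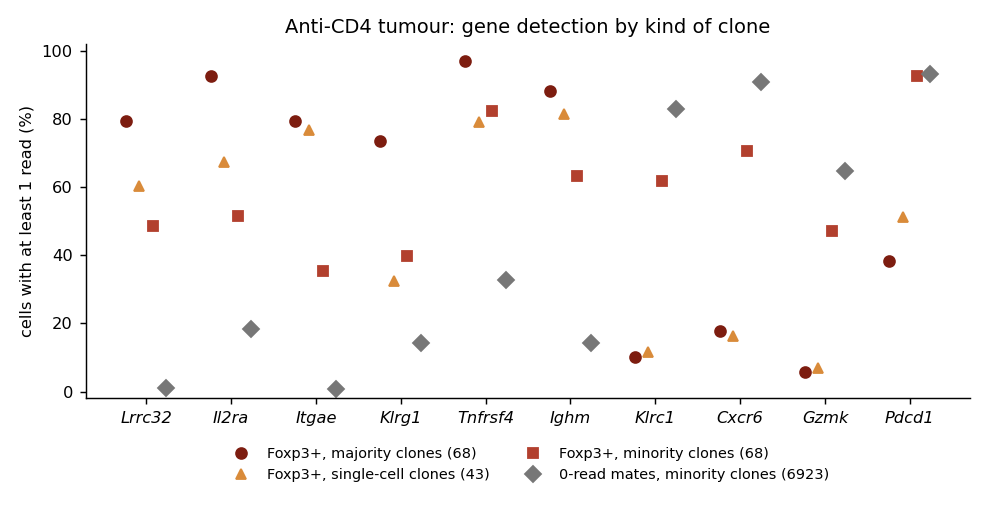
Share of cells of the anti-CD4 tumour with at least 1 read (vertical axis, percent) of 10 genes, for Foxp3+ cells of majority clones, single-cell clones and minority clones and for the clone mates without Foxp3 of the minority clones, with the number of cells in brackets. For Lrrc32 minority clones lie at 48.5%, between 79.4% in majority clones and 0.939% in their mates, and for Klrc1 at 61.8%, between 10.3% and 82.8%.

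Majority clones had few mates without Foxp3. There were 2 in the anti-CD4 tumour, in 2 clones, and both had reads of Ctla4, Tnfrsf18 and Il2ra, while 1 had reads of Lrrc32. The mate in the TRBV14 clone had 1072 Ctla4, 50 Il2ra, 462 Lrrc32 and 366 Cd8a reads, within the range of the 25 Foxp3+ cells of its clone for each of these genes (Ctla4 60 to 5154, Il2ra 0 to 342, Lrrc32 0 to 662, Cd8a 0 to 431). The TRBV3 clone of the tag 2 tumour had 1 mate. Its 149 Ctla4, 0 Il2ra and 549 Cd8a reads lay within the range of the 9 Foxp3+ cells of its clone (85 to 689, 0 to 41 and 7 to 1191). Its 0 Lrrc32 and 2 Cd8b1 reads lay below their ranges (6 to 582 and 18 to 455).

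The Gly-Leu-Gly stretch was counted after it had been noticed. The search looked for in-frame GGN, then CTN, TTA or TTG, then GGN, on the coding strand of the CDR3. Of the Foxp3+ cells of the anti-CD4 tumour, 36 of 179 had it (20.1%), beside 2.63% of 0-read cells, and 25 and 6 of the 36 were cells of the TRBV14 and TRBV12-2 clones printed above. In the tag 2 tumour 10 of 16 had it, 9 of them from 1 clone, beside 2.78%, and in tag 1 0 of 4. Counted by clone it was in 6 of 85 clones with a Foxp3+ cell in the anti-CD4 tumour (7.06%; 2.63 to 14.7%), beside 53 of 1389 others (3.82%; 2.87 to 4.96%). In tag 2 it was in 2 of 7 clones (28.6%; 3.67 to 71.0%), beside 246 of 7391 (3.33%; 2.93 to 3.76%). In tag 1 it was in 0 of 3, beside 67 of 1909 (3.51%). Most of the Foxp3+ cells with the stretch thus came from a few expanded clones. By clone the shares in the anti-CD4 and tag 2 tumours were higher too, but the intervals overlapped, the clones were few, and the difference was not tested. The median CDR3 length was 14 codons in clones with and without Foxp3+ cells of the anti-CD4 tumour.

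Most Foxp3+ cells of the anti-CD4 tumour belonged to clones that were also listed in the draining lymph node, whose CD44high CD8+ cells were read in bulk for the beta chain. The listed share was 81.0% of Foxp3+ cells (145 of 179; 74.5 to 86.5%) and 84.6% of 0-read cells (10231 of 12091; 84.0 to 85.3%). By clone it was 63.5% of clones with a Foxp3+ cell (54 of 85; 52.4 to 73.7%) and 37.6% of the others (522 of 1389; 35.0 to 40.2%). Clone size differs between these sets and bears on listing; its part was not tested. Of the 12 majority clones 10 were listed, as were 24 of 30 minority and 20 of 43 single-cell clones. The TRBV14 clone had 1603 node reads and the TRBV13-3 clone 796, among 1259463 listed reads, while the largest tumour clone had 1216.

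No label ties tags 1 and 2 to a node, and the 2 other nodes, named here by title, have treatment labels that go against their titles. In the node titled anti-PD-L1, 10 of 16 Foxp3+ cells of the tag 2 tumour had a listed clone (62.5%; 35.4 to 84.8%), beside 28.8% of 0-read cells, and 9 of the 10 were of 1 clone with 18 node reads. In the node titled control 0 of 16 had one, beside 2.55% of 0-read cells. The 4 Foxp3+ cells of the tag 1 tumour were all of clones listed in the node titled control and of none in the node titled anti-PD-L1. For the node titled control the exact interval was 39.8 to 100%, and 57.9% of 0-read cells had a listed clone. For the node titled anti-PD-L1 the share of 0-read cells was 2.97%. Node tables list clones from 10 reads upward, so a clone below that count is not seen.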

How the data were processed

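Sorted tumour CD8+ cells were read on BD Rhapsody with a targeted panel and receptor libraries, and lymph node beta chains in bulk. The GRCm38 build, cutadapt (3.2 and 3.4), Bowtie2 (2.4.2) and R (3.6.3) come from the submitters' processing notes. For the program that called receptors, a name was not given in the sources used here. Matrices deposited by the authors hold counts per gene and cell, read here as sequencing reads and not molecules, since no cell has fewer than 4361; PCR reads are not independent molecules. The deposited chain tables hold estimated counts of the leading chain and its fraction of the chain's reads in the cell, at least 0.6; a fraction under 0.9999 was taken as further chains. The deposited node tables hold counts per clone and their fraction.

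The matrices share 2124 genes, which were used. Total reads of beta chain cells were 290608768 (anti-CD4), 132038317 (tag 1) and 230544712 (tag 2). The 10 Pmel-1 clone cells under tags 5 and 6 (0 Foxp3+), called doublets and untagged cells were left out; no doublet caller was run. Reads were summed per mouse and class, for mice with at least 10 Foxp3+ cells, without the Foxp3 gene. The quasi-likelihood test of edgeR (4.0.16, under R 4.3.3) was run with the mouse as block, after TMM scaling and filterByExpr (10 counts at least), with Benjamini-Hochberg adjustment at 0.05. Alternatives included DESeq2 1.42.0, other filters and thresholds, thinning and clone mates. Both classes come from the same animal, which is the pairing. The script was tested on simulated data.

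Named genes were Foxp3, Cd4, Cd8a, Cd8b1, Ctla4, up to 10 called genes per direction by size of change (at least 10 CPM, 1 sign in both mice), and up to 4 abundant members of each list; others were named after their values were seen. The members and lists were chosen with earlier results of these data known. Python 3.11.15, numpy 2.4.6, pandas 2.3.3, scipy 1.17.1 and matplotlib 3.10.9 were used. The result for 1 marker gene is not reported here.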

Additional observations from a re-analysis of the deposited data

Results flagged for a closer look

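Cells that the comparisons do not use also held Foxp3 reads. Of the tumour cells without a beta chain in the anti-CD4 tumour, 48 of 1311 had at least 5 Foxp3 reads (3.66%; exact 95% interval 2.71 to 4.83%), with a median of 314. In the tag 1 tumour this was 2 of 1667 (0.120%), and in the tag 2 tumour 0 of 2530 (exact upper limit 0.146%). Under tags 7 to 9, which mark the added Pmel-1 cells, 13 of 860 beta chain cells reached the threshold (1.51%; 0.807 to 2.57%). Of these, 7 were among the 72 cells of other clones, and 6 of the 7 were of clones that the anti-CD4 tumour also held.

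In 3 named genes the Foxp3+ cells of the anti-CD4 and tag 2 tumours differed from their 0-read cells in opposite directions by at least 0.5 on the log2 scale in each mouse; genes with smaller opposite differences, or with 0 reads in 1 mouse, are not listed. These differences between the mice were not tested, and none of the genes passed the edgeR test. The chemokine Ccl5 was at 41594 and 95788 CPM in the anti-CD4 tumour and at 86905 and 42688 CPM in tag 2, 2.19 lower on the log2 scale in the first (a difference of -2.19). Ccr7, the receptor that guides cells to lymph nodes, had log2 differences of 0.53 and -0.54, a gap of 1.07. Tgfb1 had 0.68 and -1.08, a gap of 1.76.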

How the results depend on the processing

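The share of Foxp3+ cells in the anti-CD4 tumour was 1.73% with a threshold of 1 read and 3.82% as a mean over clones. In the other settings for shares and node listing each value stayed within its counting interval, and clone counts within 1.5 times.

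The count of 26 called genes was 13 with DESeq2, 2 without the replicate block (Lrrc32 and Xcl1), and 0 with only genes of at least 10 CPM (37 at an unadjusted p under 0.05), with clone mates as the comparison (1 at that level) and with all 3 mice (205 at that level; added after seeing the data). It lay between 19 and 25 in the other settings tested. The 0-read clone mates of tag 2 are 1 cell. Against clone mates, Cxcr6 was at 0.26, Gzmb at -0.26, Il18rap at 0.53, Klrc1 at 0.90 and Xcl1 at 0.60 on the log2 scale, the opposite direction. The other 16 of 21 named called genes kept their direction in the 15 settings with a value, and these 5 did in all but that one. Leaving out either mouse, the largest Foxp3+ clone, or majority and single-cell clones (added after seeing the data) left 1 mouse and no test. The cause of these changes was not tested.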
